A study of Mus musculus with 10 samples.

Results

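The genes described here are 43 synaptic and mature neuron genes, chosen by name from knowledge of the synapse and with earlier results of these arrays known. A gene was taken as measured where a transcript cluster of the array carries its symbol alone. By that rule 38 of the 43 were measured, each by 1 transcript cluster, out of 14807 named genes and 23238 transcript clusters in all. Vamp1, Gabbr2, Grin1, Tubb3 and Nrxn2 had no such transcript cluster and are not analysed here. The 38 comprise 11 synaptic vesicle and fusion genes, 4 active zone genes, 3 transmitter transporters, 5 receptor and postsynaptic genes, 4 calcium pumps and buffers, 5 filament and tubulin genes, 3 genes of neuronal RNA-binding proteins, and 3 adhesion and secreted proteins.

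RNA from 10 mouse samples was measured on 1-colour Affymetrix exon arrays. Every sample, controls included, came from mice whose genotype is given as p53/Rb Flox-Hom, on a mixed background intercrossed from C57, FVB and mainly 129 Ola, in which Cre recombinase deletes both tumour suppressor genes. The 3 primitive neuroectodermal tumours (PNET 1, 2 and 3) and oligo-astrocytoma 44 arose after intra-cranioventricular injection of an adenovirus carrying Cre (AdCre). Oligo-astrocytomas 4, 5 and 6 grew from grafts of neurospheres transduced with AdCre in culture. The cultured groups were 2 AdCre neurospheres and 1 AdGFP neurosphere, transduced with adenovirus for green fluorescent protein as a control, all at passage 3. The series' own text counts both kinds among its control neurospheres, while the labels call the AdCre spheres transformed. The tumours were dissected tissue and can hold cells of the host brain. No source used here gives the host of the grafts, the age of the mice or the promoter driving Cre. The labels do not say which samples came from separate animals or cultures, so each p-value sets a difference against the spread between the samples at hand, which may be technical.

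A chemical synapse releases transmitter when calcium entry drives vesicles, loaded by transporters and primed at the active zone, to fuse through SNARE proteins. Receptors anchored by scaffolds in the postsynaptic density read the signal, and neurofilaments and tubulin regulators maintain the axon behind it. Mature neurons are best known for these genes, but photoreceptors and pinealocytes, which release glutamate from ribbon synapses or ribbon-bearing terminals, use part of the same set with their own variants. Neural progenitors and cultured neurospheres can carry RNA of some neuronal genes without making synapses.

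Values are log2 expression, on which 1 unit is a doubling, and probes differ in brightness, so a level is compared between samples and never between genes. Array medians ranged from 5.87 to 6.06 and lower quartiles from 4.22 to 4.44, and a value near or below the lower quartile is called dim. Upper quartiles were 7.22 to 7.49 in the tumours and 7.9 to 8 in the spheres, so the deposited values of bright genes were not on a matched scale. Quantile normalization, used below as an alternative, makes the distributions equal. Rb1, the targeted gene that was measured, stood at 8.49 in the AdGFP sphere and at 6.34 to 6.65 in the AdCre spheres. It was 6.36 to 7.24 in the oligo-astrocytomas and 7.48 to 7.64 in the PNET. The mean over 15 photoreceptor and pineal markers was 7.29 to 7.92 in the PNET and 4.06 to 4.48 in the other samples. Over 7 stem and progenitor markers the mean was 6.87 to 7.1 in the PNET, 7.75 to 8.44 in the oligo-astrocytomas and 9.8 to 9.94 in the spheres. Of the 7, 3 were lower and 1 higher in PNET than in grafts, beside 8.01% and 6% of named genes. Over 8 oligodendrocyte precursor markers it was 5.49 to 5.81 in the PNET, 9.76 to 10.06 in the oligo-astrocytomas and 7.62 to 8.88 in the spheres. Differences between groups come from a limma fit to all 10 samples with Benjamini-Hochberg adjustment over all transcript clusters, and a gene is called where the adjusted p is under 0.05. In bulk samples, fewer cells of a type and less RNA per cell cannot be told apart.

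The 38 genes did not all move the same way. Across the 5 groups, limma's moderated F test called 24 of 38, against 34.9% of all transcript clusters and 36.4% of named genes. The PNET had the highest mean of the 5 groups for 16 genes and the lowest for 10. The AdCre-induced oligo-astrocytoma, 1 sample, had the lowest mean for 13 genes and the highest for 3. For the AdGFP sphere, also 1 sample, these counts were 6 and 10. Means of fewer samples vary more and so reach the extremes more easily. The counts were not set against those over all named genes. The genes highest in PNET included the SNARE gene Snap25, the vesicle gene Syp and the glutamate transporter gene Slc17a7, and those lowest there included Elavl3, Elavl4 and Homer1. The map of all 38 genes shows both patterns side by side.

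**Figure D1:**
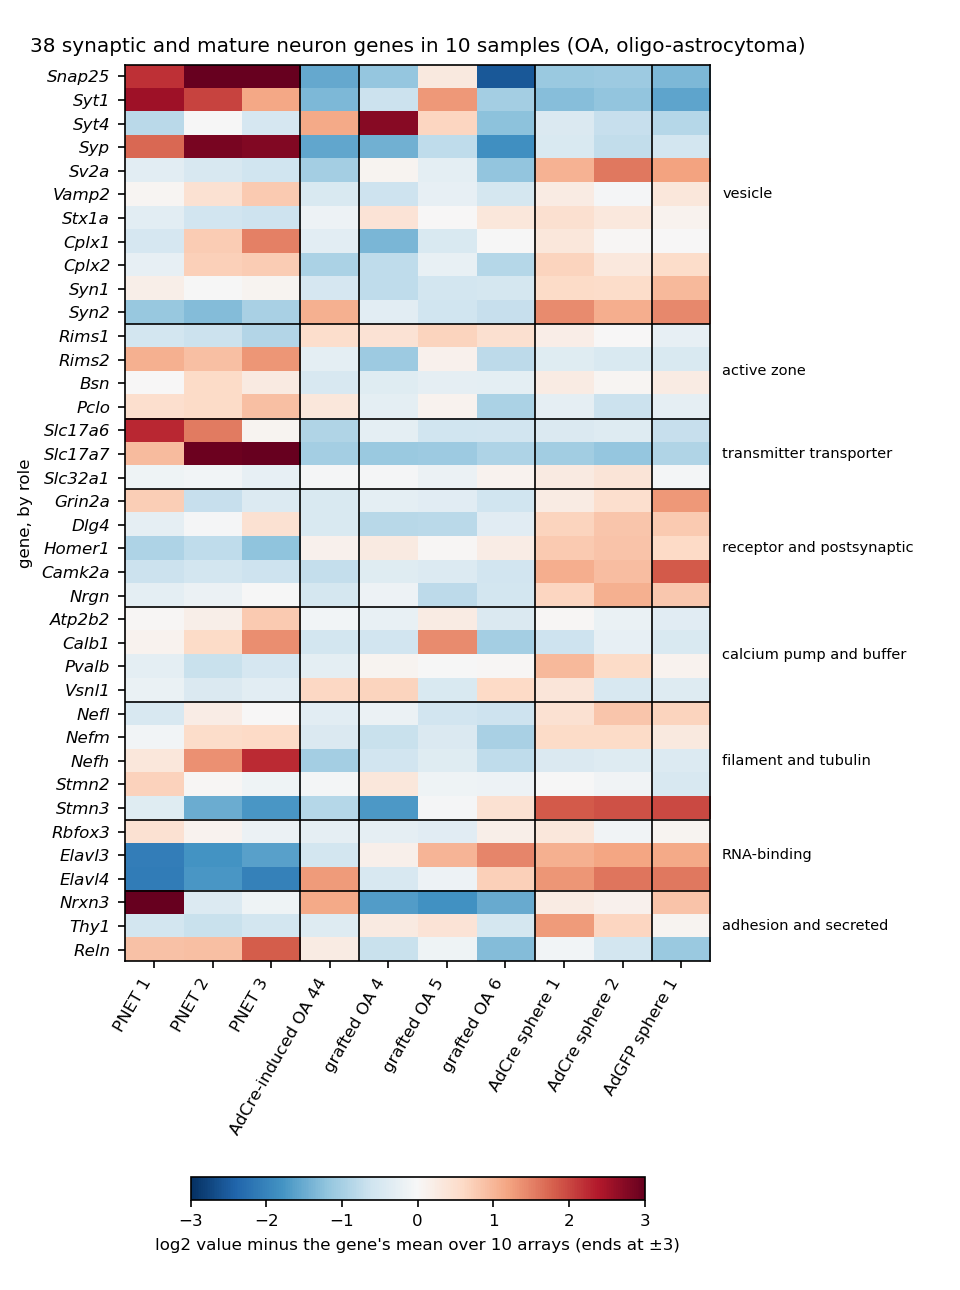
Each row is 1 gene, grouped by role, and each column 1 of the 10 samples, with black lines between groups; colour gives the log2 value minus that gene's mean over the 10 arrays, with colours ending at 3 units either way. Snap25, Syp and Slc17a7 are red across the 3 PNET and blue in most other samples, while Elavl3, Elavl4 and Homer1 are blue across the PNET.

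Against the 3 grafted oligo-astrocytomas, 11 of 38 genes were higher in the 3 PNET and 5 were lower. Among all transcript clusters 4.88% were higher and 6.24% lower, and among named genes 6% and 8.01%. The median difference of the 38 genes was 0.42 on the log2 scale, beside 0 for named genes. The higher genes were 4 of 11 vesicle genes, 2 of 4 active zone genes, 2 of 3 transporters, 2 of 5 filament genes and Reln. The lower genes were Stx1a, Rims1, Homer1, Elavl3 and Elavl4. Calls for 9 of the 16 genes (Snap25, Syp, Rims1, Rims2, Slc17a7, Homer1, Elavl3, Elavl4 and Reln) were present in all 8 fits that each left out 1 sample. Without PNET 2, without grafted oligo-astrocytoma 4 or without grafted oligo-astrocytoma 6, the count fell to those 9. The other 7 (Vamp2, Stx1a, Syn1, Pclo, Slc17a6, Nefm and Nefh) each lost the call in at least 4 of the 8 fits.

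Snap25 encodes the membrane-bound SNARE of the nerve terminal that fuses with vesicles. Its log2 values were 9.73, 10.78 and 10.55 in the PNET, 6.37, 7.83 and 4.98 in grafted oligo-astrocytomas 4, 5 and 6, and 6 in oligo-astrocytoma 44. The spheres were at 6.41 and 6.44 with AdCre and 6.19 with AdGFP. Every PNET was above every other sample, and the grafts were spread more widely than the cultures. The difference between PNET and grafts was 3.96 ± 0.63 (SE, n = 3 and 3; limma adjusted p = 0.005854), a 15.54-fold difference, and leaving out 1 sample moved it between 3.25 and 4.68.

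Syp encodes synaptophysin, an abundant membrane protein of small synaptic vesicles. It was 9.97, 11.08 and 11.02 in the PNET and 6.79, 7.47 and 6.41 in the grafts. The AdCre-induced oligo-astrocytoma was at 6.68, the AdCre spheres at 7.78 and 7.51, and the AdGFP sphere at 7.68. The PNET stood apart again, and the spheres lay above all oligo-astrocytomas. Syp differed by 3.8 ± 0.36 between PNET and grafts (SE, n = 3 and 3; limma adjusted p = 0.0005831).

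Syt1, the calcium sensor of fast release, was 9.47, 8.95 and 8.1 in the PNET and 6.29, 8.24 and 5.92 in the grafts. Graft 5 reached the level of PNET 3, so these groups overlapped, and the difference of 2.02 ± 0.59 was not called (SE, n = 3 and 3; limma adjusted p = 0.06403). In the AdCre spheres Syt1 was 5.66 and 5.75, in the AdGFP sphere 5.34, and it was 5.58 in oligo-astrocytoma 44. Against the AdCre spheres it was higher in PNET by 3.13 ± 0.66 (SE, n = 3 and 2; limma adjusted p = 0.007039). Syt4, a relative that does not act as the fast sensor, ran from 5.78 in graft 6 to 9.74 in graft 4. It was called in no comparison of the full fit.

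The SNARE partners of Snap25 went opposite ways. Vamp2, the vesicle SNARE, was 8.48, 8.87 and 9.19 in the PNET and 7.79, 8.18 and 7.89 in the grafts. It was higher in PNET by 0.89 ± 0.23 (SE, n = 3 and 3; limma adjusted p = 0.03999), but passed in only 1 of the 8 fits that left out a sample, the one without PNET 1, and the highest adjusted p among the others was 0.1236. Stx1a, the syntaxin that pairs with Snap25 on the plasma membrane, was 5.72, 5.47 and 5.43 in the PNET and 6.45, 6.06 and 6.38 in the grafts. Stx1a was lower in PNET than in grafts by 0.76 on the log2 scale (SE 0.18, a change of -0.76; limma adjusted p = 0.03073). That call was lost without PNET 2, PNET 3, graft 4 or graft 6, with an adjusted p of up to 0.1026.

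The synapsins, which tether vesicles in the reserve pool, differed from one another. Syn1 was 6.83, 6.64 and 6.72 in the PNET, 5.89, 6.1 and 6.11 in the grafts, 7.22 and 7.19 in the AdCre spheres and 7.61 in the AdGFP sphere. The spheres were highest and the grafts lowest, with a difference of 0.69 ± 0.16 between PNET and grafts (SE, n = 3 and 3; limma adjusted p = 0.02578). Without any 1 of the 3 PNET and 3 grafts that Syn1 call was lost, with an adjusted p of up to 0.07652. Syn2 was 6.06, 5.9 and 6.22 in the PNET, 6.87, 6.6 and 6.5 in the grafts, and 8.27 in oligo-astrocytoma 44. The AdCre spheres held Syn2 at 8.61 and 8.28 and the AdGFP sphere at 8.63, so the injected oligo-astrocytoma was at the level of the cultures and not of the grafts.

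Sv2a, a vesicle glycoprotein, was 6.06 to 6.35 in the PNET and 5.47 to 6.73 in the grafts, and 7.7, 8.24 and 7.86 in AdCre sphere 1, AdCre sphere 2 and the AdGFP sphere. Both tumour types lay below every sphere. The complexins clamp and promote SNARE fusion. Cplx1 rested on a wide spread, from 6.69 to 8.71 in the PNET and 5.81 to 7.18 in the grafts, and was called in no comparison. Cplx2 was 6.62 to 7.63 in the PNET, 6.01 to 6.64 in the grafts and 7.17 to 7.52 in the spheres, and the PNET against graft difference of 1.03 ± 0.31 was not called (SE, n = 3 and 3; limma adjusted p = 0.07219).

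**Figure D2:**
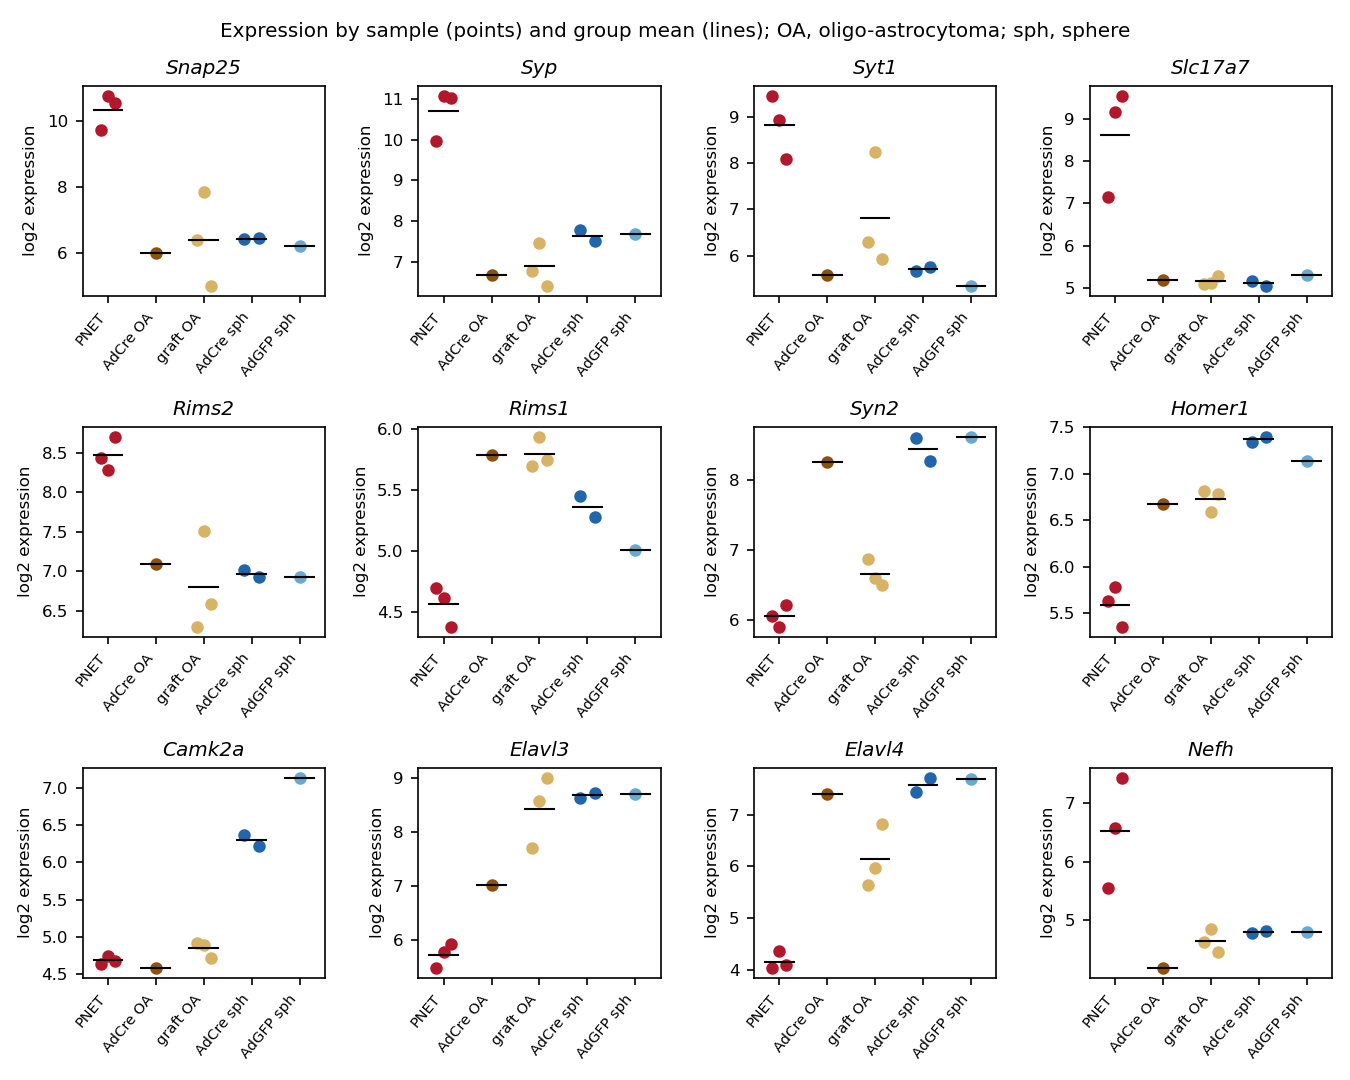
Log2 values of selected genes, 1 panel per gene, with 1 point for each of the 10 samples and a bar at the mean of each group. Snap25, Syp and Slc17a7 are each higher, and Elavl3 and Elavl4 each lower, in every PNET than in every other sample.

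At the active zone, the protein mesh where vesicles dock, the 2 Rims genes moved in opposite directions. Rims2 was 8.44, 8.28 and 8.71 in the PNET, 6.29, 7.51 and 6.58 in the grafts, 7.09 in oligo-astrocytoma 44 and 6.92 to 7.01 in the spheres. Rims1 was 4.7, 4.62 and 4.38 in the PNET, 5.7, 5.94 and 5.75 in the grafts, 5.79 in oligo-astrocytoma 44 and 5.01 to 5.45 in the spheres. No PNET overlapped another sample for either gene. Between PNET and grafts, Rims2 was higher by 1.69 ± 0.3 (SE, n = 3 and 3; limma adjusted p = 0.01041) and Rims1 changed by -1.23 ± 0.17 (adjusted p = 0.003175). The array quantifies RNA of the whole transcript cluster, and the Rims1 level in PNET was close to the lower quartile.

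Pclo, the giant scaffold piccolo, was 6.88, 6.96 and 7.28 in the PNET and 6.08, 6.47 and 5.43 in the grafts, a difference of 1.05 ± 0.28 (SE, n = 3 and 3; limma adjusted p = 0.047). That call passed in only 1 of 8 fits that left out a sample, the one without graft 5, with an adjusted p of up to 0.1478 in the others. The Pclo call was also lost with both oligo-astrocytoma groups as 1 (limma adjusted p = 0.09054), and oligo-astrocytoma 44 stood at 6.72. Bsn, the related scaffold bassoon, was 6.17 to 6.73 in the PNET and 5.79 to 5.9 in the grafts, without overlap, and the difference of 0.59 ± 0.19 was not called (adjusted p = 0.08745).

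Glutamate is packed into vesicles by Slc17a7 (VGLUT1) or Slc17a6 (VGLUT2), and GABA and glycine by Slc32a1. Slc17a7 was 7.15, 9.15 and 9.55 in PNET 1, 2 and 3, and lay between 5.04 and 5.3 in all 7 other samples. PNET 1 was lower than the other PNET but still above every other sample. The difference from the grafts was 3.46 ± 0.54 (SE, n = 3 and 3; limma adjusted p = 0.005322), or 10.97-fold.

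Slc17a6 ran the other way among the PNET, at 6.58, 5.87 and 4.4, with 3.71 to 4.01 in the grafts and 3.4 to 3.92 in the remaining samples. PNET 3 was dim like the 7 other samples, which all lay below the lower quartile of their arrays. The difference of 1.8 ± 0.47 from the grafts was called (limma adjusted p = 0.04565) but passed only without PNET 3 among the 8 fits leaving out a sample, with an adjusted p of up to 0.1323. Slc32a1 was 5.31 to 5.48 in the PNET, 5.39 to 5.67 in the grafts and 5.51 to 5.95 in the spheres, and was called nowhere.

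The promoters of 26 of the 38 genes are in the RefSeq table used here (mouse build GRCm38.p6), as 41 windows from 250 bases before to 50 bases after an annotated start. The 4 windows below belong to a vesicle and a transporter gene that were higher in PNET, a vesicle gene that was highest in spheres, and an RNA-binding gene that was lower in PNET. They are written along the gene's strand, 5′ to 3′, and capitals mark letters of the motifs searched. Those were GGATTA (the core bound by Otx and Crx homeobox factors), TTCAGCACC (the left part of the RE1 element bound by the repressor REST), TGACGTCA (the cyclic AMP response element) and the E-boxes CAGCTG and CACGTG, each on both strands, none overlapping another in the printed windows.
Syp, chrX:7638330-7638629, plus strand: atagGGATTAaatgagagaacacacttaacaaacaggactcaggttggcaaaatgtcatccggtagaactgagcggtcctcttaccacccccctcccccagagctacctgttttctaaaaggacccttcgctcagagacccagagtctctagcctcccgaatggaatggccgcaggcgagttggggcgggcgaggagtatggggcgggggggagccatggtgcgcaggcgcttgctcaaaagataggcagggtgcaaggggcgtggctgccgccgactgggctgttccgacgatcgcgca
Slc17a7, chr7:45163671-45163970, plus strand: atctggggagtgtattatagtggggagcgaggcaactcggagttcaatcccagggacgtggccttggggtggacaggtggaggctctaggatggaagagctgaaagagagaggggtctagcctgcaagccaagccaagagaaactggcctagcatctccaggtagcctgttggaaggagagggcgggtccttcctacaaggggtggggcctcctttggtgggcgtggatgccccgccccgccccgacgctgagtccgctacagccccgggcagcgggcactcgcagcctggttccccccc
Syn1, chrX:20920869-20921168, minus strand: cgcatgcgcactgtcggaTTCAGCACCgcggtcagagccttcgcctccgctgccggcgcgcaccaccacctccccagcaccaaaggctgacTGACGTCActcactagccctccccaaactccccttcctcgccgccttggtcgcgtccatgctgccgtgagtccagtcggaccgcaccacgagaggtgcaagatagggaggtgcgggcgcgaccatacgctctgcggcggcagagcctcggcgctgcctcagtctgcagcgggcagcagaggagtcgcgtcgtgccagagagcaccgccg
Elavl3, chr9:22051974-22052273, minus strand: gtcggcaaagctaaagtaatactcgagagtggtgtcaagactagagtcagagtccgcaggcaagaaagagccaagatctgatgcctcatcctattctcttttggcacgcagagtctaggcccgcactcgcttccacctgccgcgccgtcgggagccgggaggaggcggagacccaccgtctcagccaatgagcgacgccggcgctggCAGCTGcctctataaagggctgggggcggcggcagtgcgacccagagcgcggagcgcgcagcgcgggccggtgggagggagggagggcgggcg

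In the Syp window GGATTA begins at base 5, and no searched motif is in the Slc17a7 window. GGATTA occurs in 7.06% of all 32851 promoter windows and in 2 of the 41 windows of these genes, those of Syp and Dlg4. TTCAGCACC occurs in 0.371% of all windows and in 1 of the 41, that of Syn1, which also holds TGACGTCA, found in 1.79% of all windows. A longer form of the RE1 element was in none of the 41, and in only 4 of all 32851 windows (0.0122%). With so few exact matches anywhere, its absence from the 41 says little. CAGCTG is in the Elavl3 window and in 10 of the 41, beside 16.3% of all windows, and CACGTG is in 1 of the 41, that of Reln, beside 7.15%. A match describes the letters in the window and not a bound site.

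On the receiving side 1 of 5 genes was called between PNET and grafts, or 20%, beside 14.01% of named genes. That gene was Homer1, which was lower in PNET, and the median difference of the 5 was 0.29. Homer1, a scaffold that links metabotropic glutamate receptors to the postsynaptic density, was 5.63, 5.78 and 5.35 in the PNET. It was 6.81, 6.59 and 6.78 in the grafts, 6.67 in oligo-astrocytoma 44, and 7.34, 7.4 and 7.14 in AdCre sphere 1, AdCre sphere 2 and the AdGFP sphere. The 3 kinds of sample formed 3 steps without overlap. Homer1 differed by -1.14 ± 0.18 between PNET and grafts (SE, n = 3 and 3; limma adjusted p = 0.005046).

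Dlg4 encodes PSD-95, the main scaffold under glutamate receptors. It was 7.81, 8.06 and 8.55 in the PNET, 7.26, 7.28 and 7.75 in the grafts, 7.62 in oligo-astrocytoma 44 and 8.76 to 8.91 in the spheres. PNET were between the grafts and the spheres, and the difference of 0.71 ± 0.24 from the grafts was not called (SE, n = 3 and 3; limma adjusted p = 0.09896). Camk2a, the kinase of synaptic plasticity, was 4.58 to 4.92 in all 7 tumours, 6.37 and 6.22 in the AdCre spheres and 7.14 in the AdGFP sphere. Nrgn, which holds calmodulin in dendrites, was 5.02 to 5.8 in the tumours and 6.44 to 6.86 in the spheres, so every sphere exceeded every tumour for both genes. Grin2a, an NMDA receptor subunit, was dim in 6 of 10 samples, reached 5.17 in PNET 1 and 5.73 in the AdGFP sphere, and was called in no comparison.

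Among calcium pumps and buffers, none of 4 was called between PNET and grafts with limma, beside 14.01% of named genes. At an unadjusted p under 0.05 there was 1 of the 4, beside 4323 of 14807 named genes. Pvalb, the buffer parvalbumin, was 4.67, 4.28 and 4.46 in the PNET, 5.05, 4.94 and 4.99 in the grafts, 5.92 and 5.53 in the AdCre spheres and 5.07 in the AdGFP sphere. Calb1, the buffer calbindin, was dim in 8 of 10 samples and reached 5.2 in PNET 3 and 5.22 in graft 5. Atp2b2, a calcium pump of the plasma membrane, ran from 5.99 to 7.21, and Vsnl1, a neuronal calcium sensor, from 4.88 to 6.01. Neither was called in any comparison.

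The neurofilament subunits, which set axon calibre, were led by the heavy chain in the PNET. Nefh was 5.55, 6.57 and 7.44 in the PNET, 4.63, 4.84 and 4.45 in the grafts, 4.18 in oligo-astrocytoma 44 and 4.78 to 4.82 in the spheres. All PNET were above all others, over a range of nearly 2 units, and the difference from the grafts was 1.88 ± 0.41 (SE, n = 3 and 3; limma adjusted p = 0.02268). Without PNET 2 or without any 1 graft that Nefh call was lost, with an adjusted p of up to 0.07241.

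Nefm, the medium chain, was 5.66, 6.28 and 6.33 in the PNET, 5.07, 5.29 and 4.77 in the grafts and 6.02 to 6.31 in the spheres. PNET and spheres overlapped, and the grafts lay below both, with a PNET to graft difference of 1.05 ± 0.23 (SE, n = 3 and 3; limma adjusted p = 0.0242). The call was lost without PNET 2, PNET 3, graft 4 or graft 6, with an adjusted p of up to 0.08678. Nefl, the light chain, was 5.17 to 5.87 in the PNET, 5.04 to 5.49 in the grafts and 6.11 to 6.48 in the spheres. Stmn3, a stathmin that regulates tubulin, was 6.49, 5.35 and 5.09 in the PNET, 5.12, 6.8 and 7.31 in the grafts and 8.68, 8.76 and 8.83 in the spheres. Both tumour types were below every sphere and overlapped each other. Stmn2, its relative in growing axons, ran from 3.87 to 5.03, was dim in 7 of 10 samples and was called nowhere.

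Elavl3 and Elavl4 encode HuC and HuD, RNA-binding proteins of neurons that stabilise neuronal transcripts. Elavl3 was 5.48, 5.77 and 5.93 in the PNET, 7.71, 8.57 and 9.01 in the grafts, 7.01 in oligo-astrocytoma 44 and 8.63, 8.73 and 8.7 in the spheres. Elavl4 was 4.03, 4.36 and 4.08 in the PNET, 5.64, 5.97 and 6.82 in the grafts, 7.4 in oligo-astrocytoma 44 and 7.44, 7.72 and 7.7 in the spheres. For both genes every PNET was below every other sample, and all PNET were dim for Elavl4.

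Elavl3 differed by -2.7 ± 0.32 between PNET and grafts (SE, n = 3 and 3; limma adjusted p = 0.001479), a 6.491-fold difference. Elavl4 differed by -1.99 ± 0.3 (adjusted p = 0.004588). Rbfox3, which encodes NeuN, a nuclear antigen of mature neurons, ran from 5.31 to 6.11 over all 10 samples and was called in no comparison.

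Of the adhesion and secreted genes, Reln, which encodes the secreted guidance protein reelin, was 7.88, 7.91 and 8.81 in the PNET. It was 6.34, 6.88 and 5.71 in the grafts, 7.24 in oligo-astrocytoma 44, 6.92 and 6.45 in the AdCre spheres and 5.9 in the AdGFP sphere. All PNET were above all others, by 1.89 ± 0.36 against the grafts (SE, n = 3 and 3; limma adjusted p = 0.01284). Nrxn3, a presynaptic neurexin, was 9.61 in PNET 1 but 6.03 and 6.32 in PNET 2 and 3, and 4.78, 4.64 and 4.94 in the grafts.

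PNET 1 alone was far above the rest for Nrxn3, and the difference of 2.53 ± 0.81 from the grafts was not called (SE, n = 3 and 3; limma adjusted p = 0.08786). Without PNET 1 it was called in that comparison. Thy1, a surface glycoprotein of neurons and other cells, was 5.71 to 5.82 in the PNET, 5.84 to 6.77 in the grafts and 7.65, 7.01 and 6.46 in the spheres.

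The single AdCre-induced oligo-astrocytoma, number 44, shares its route of induction with the PNET, so it was compared with them apart from the grafts. Of the 38 genes, 3 were higher in PNET and 4 lower, against 1.54% and 3.54% of all transcript clusters and 1.95% and 4.79% of named genes. The lone sample was assumed to vary like the other groups, and this comparison shares the PNET with the one against grafts. Snap25 differed by 4.36 ± 0.89 (SE, n = 3 and 1; limma adjusted p = 0.03046), Syp by 4.01 ± 0.51 (adjusted p = 0.00445) and Slc17a7 by 3.42 ± 0.76 (adjusted p = 0.04073).

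Lower in PNET than in this tumour were Elavl4 by -3.24 ± 0.42 (SE, n = 3 and 1; limma adjusted p = 0.004703), Syn2 by -2.21 ± 0.26 (adjusted p = 0.003072), Rims1 by -1.22 ± 0.24 (adjusted p = 0.02595) and Homer1 by -1.09 ± 0.25 (adjusted p = 0.04535). The calls of Syp, Syn2 and Elavl4 were present in all 8 fits that left out a sample. The count was 3 without PNET 2 and 4 without PNET 3 or without either AdCre sphere. Slc17a7 passed only without PNET 1 and Homer1 in none of these fits, with adjusted p values of up to 0.09316 and 0.09619.

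Between the AdCre-induced and the grafted oligo-astrocytomas no gene of the 38 was called with limma, beside 0.301% of all transcript clusters and 0.405% of named genes, and 4 genes had an unadjusted p under 0.05, as had 1109 of 14807 named genes. These were Syn2, higher in the injected tumour by 1.62 ± 0.26 (SE, n = 1 and 3; limma adjusted p = 0.0613), Nrxn3, with a difference of 2.8 ± 1.15 (adjusted p = 0.6189), Elavl4, with 1.26 ± 0.42 (adjusted p = 0.4695), and Elavl3, with -1.42 ± 0.45 (adjusted p = 0.421). Nrxn3 stood at 7.59 in the injected tumour against 4.64 to 4.94 in the grafts. In the fit without PNET 1, Nrxn3 was the 1 gene called here.

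Against the 2 AdCre spheres, 9 of the 38 genes were higher in PNET and 12 were lower. Of all transcript clusters 11.2% were higher and 25.9% lower, and of named genes 5.53% and 32.1%, so the share of lower members was near the background. The median difference of the 38 genes was -0.14 and that of named genes -0.36, which places these genes 0.22 above the median named gene. With quantile normalization between arrays the medians were 0.06 and -0.18, so the sign of the members' median depends on the scaling. Under that normalization 3259 transcript clusters were higher and 3378 lower, against 2601 and 6010 with the values as deposited, while the members were again split into 9 and 12, with Vamp2 called in place of Slc17a6.

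The higher genes were Snap25, by 3.93 ± 0.7 (SE, n = 3 and 2; limma adjusted p = 0.003541), Slc17a7, by 3.51 ± 0.6 (adjusted p = 0.002877), Syt1 (above) and Syp, by 3.04 ± 0.41 (adjusted p = 0.001043), followed by Nefh, Slc17a6, Reln, Rims2 and Pclo at 1.13 to 1.73. The lower genes were led by Elavl4, at -3.43 ± 0.33 (limma adjusted p = 0.0002853), Stmn3, at -3.08 ± 0.63 (adjusted p = 0.006485), Elavl3, at -2.95 ± 0.35 (adjusted p = 0.0006579), and Syn2, at -2.38 ± 0.21 (adjusted p = 0.0001916). The others were Homer1, Sv2a, Camk2a, Thy1, Pvalb, Nrgn, Stx1a and Rims1, at -1.79 to -0.8. Of the 21 calls, 12 were present in all 8 fits that left out a sample. The count was 14 without AdCre sphere 1 and 15 without AdCre sphere 2, and the calls lost in at least 1 of these fits were those of Stx1a, Rims1, Rims2, Pclo, Slc17a6, Nrgn, Nefh, Thy1 and Reln.

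The grafted tumours grew from AdCre spheres, and no gene of the 38 was higher in the grafts than in the cultured AdCre spheres, while 13 were lower. The background was 9.51% higher and 21.6% lower among all transcript clusters, and 3.12% and 26.8% among named genes. The median difference was -0.52 for these genes and -0.36 for named genes, and -0.27 and -0.21 with quantile normalization. The lower genes were 4 of 5 receptor and postsynaptic genes, 4 of 11 vesicle genes, 3 of 5 filament genes and 1 each of the calcium and RNA-binding genes. None of the active zone genes or transporters was called. At an unadjusted p under 0.05 none of these 7 passed either, beside 6080 of 14807 named genes. This comparison shares the AdCre spheres with the one above. Markers of cells that spheres lack also separated tumours from cultures: the mean over 10 microglia markers was 6 to 8.29 in the tumours and 4.61 to 4.74 in the spheres, and over 7 endothelial markers 5.94 to 6.87 and 4.44 to 4.68. Their part in the differences between tumours and spheres was not tested.

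Camk2a was lower in grafts by -1.45 ± 0.17 (SE, n = 3 and 2; limma adjusted p = 0.001325), Syn2 by -1.79 ± 0.21 (adjusted p = 0.001233), Syn1 by -1.17 ± 0.18 (adjusted p = 0.002644), Nrgn by -1.35 ± 0.24 (adjusted p = 0.005122) and Dlg4 by -1.4 ± 0.27 (adjusted p = 0.006308). Those 5 calls were present in every fit that left out a sample, and Dlg4 was lost with quantile normalization (adjusted p = 0.06078). The remaining 8 were Stmn3, Sv2a, Elavl4, Nefm, Nefl, Cplx2, Pvalb and Homer1, at -2.31 to -0.64, each lost in at least 1 of the 8 fits. The count was 7 without either AdCre sphere and 8 with quantile normalization, which lost Cplx2, Dlg4, Homer1, Stmn3 and Elavl4. Without graft 6, Syt4 was called higher in grafts, the 1 gene called in that direction in any of these fits.

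**Figure D3:**
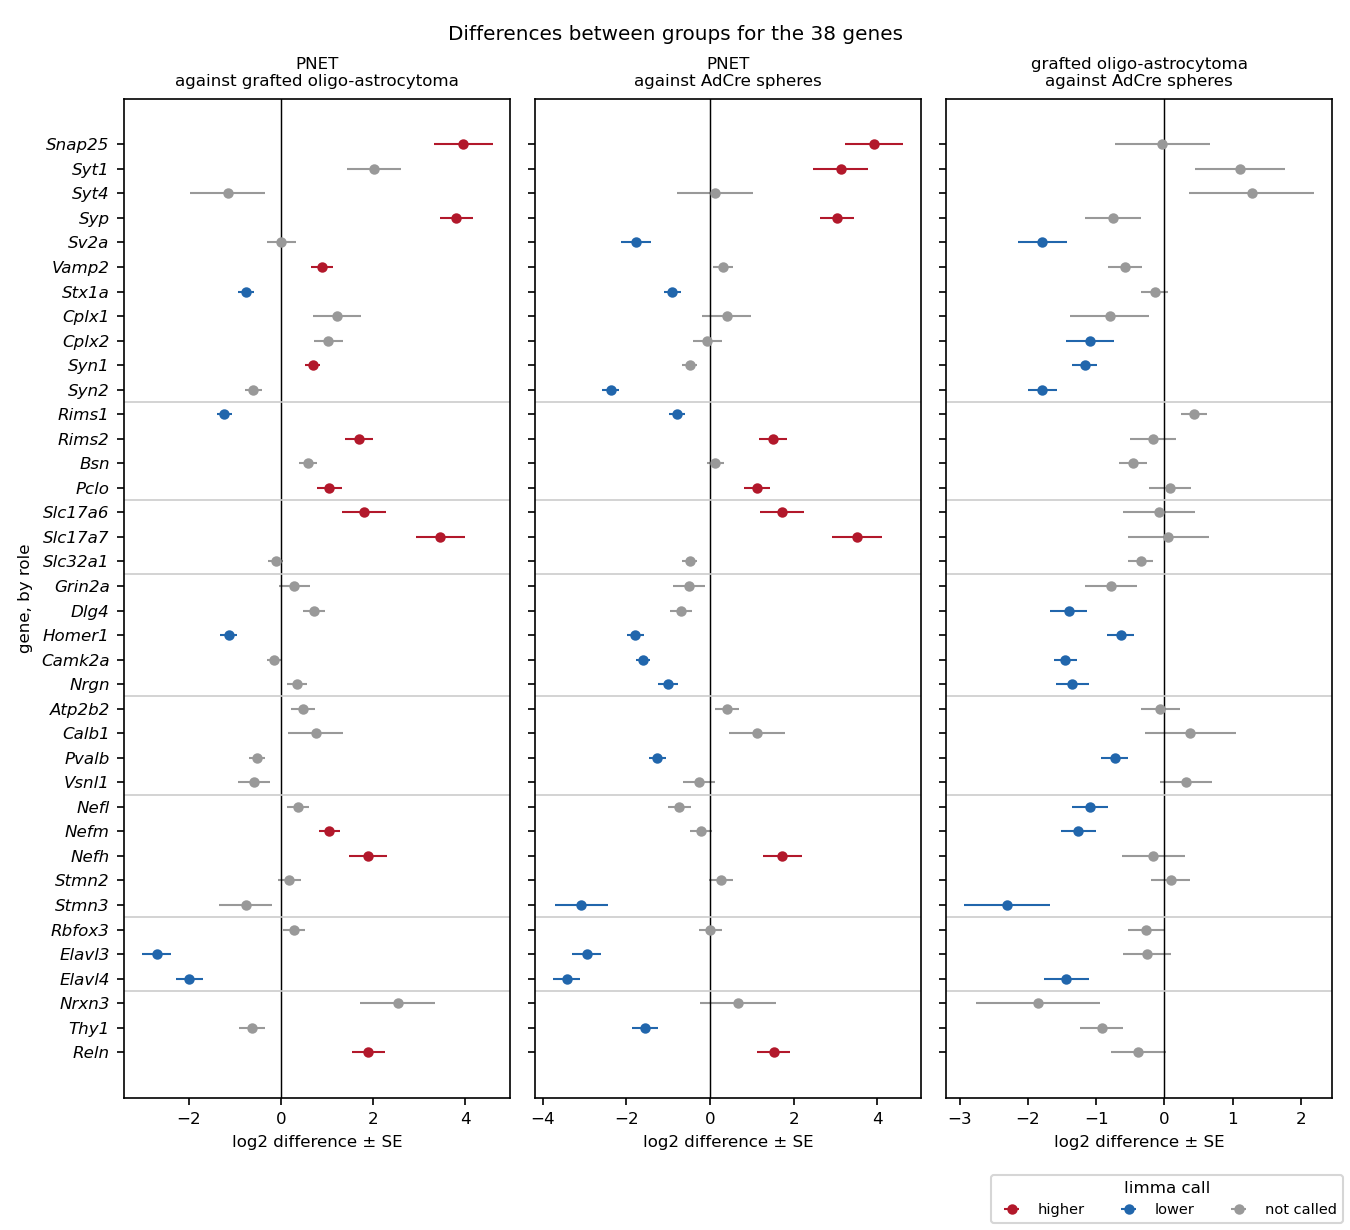
Log2 difference of each of the 38 genes in 3 comparisons, with its standard error from limma; red points are higher and blue points lower in the first-named group at an adjusted p under 0.05, and grey points were not called. Against the grafts 11 genes are red and 5 blue, against the AdCre spheres PNET have 9 red and 12 blue, and grafts have 13 blue and none red.

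Between AdCre and AdGFP spheres, which differ in the deletion of the floxed genes, none of the 38 genes was called with limma, and 0% of all transcript clusters and 0% of named genes were. At an unadjusted p under 0.05 there were 2 of the 38 genes, beside 391 named genes. They were Camk2a, which was 6.37 and 6.22 with AdCre and 7.14 with AdGFP (difference -0.85 ± 0.23, SE, n = 2 and 1; limma adjusted p = 0.6294), and Pvalb, with 0.66 ± 0.27 (adjusted p = 0.9435). With 1 AdGFP sample the spread of that group was not measured.

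Tumour replicates varied widely for part of these genes. The standard deviation exceeded 0.5 for 13 of 38 genes in the PNET, or 34.21%, beside 14.57% of named genes, and for 15 in the grafts, or 39.47%, beside 12.46%. In the AdCre spheres it did so for 1 gene, or 2.632%, beside 7.746% of named genes. In the PNET the wide genes included Nrxn3 (SD 1.99), Slc17a7 (SD 1.28) and Slc17a6 (SD 1.11), where PNET 1 held more Nrxn3 and Slc17a6 and less Slc17a7 than PNET 3. In the grafts they included Syt4 (SD 1.98), Snap25 (SD 1.43), Calb1 (SD 1.29), Syt1 (SD 1.25) and Stmn3 (SD 1.15). Graft 5 was the highest of the 3 for Snap25, Syt1 and Calb1, and graft 4 for Syt4. Mature oligodendrocyte markers, as a mean over 10 genes, were 9.14, 7.54 and 6.56 in grafts 4, 5 and 6, and their part in these differences was not tested.

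Genes of the release machinery outside the 38 were read from lists chosen for their roles, with earlier results of these arrays known. Of 24 other genes of the vesicle cycle, 5 were higher in PNET than in grafts and 1 was lower, with a median difference of 0.43. These are 20.83% and 4.167%, beside 6% and 8.01% of named genes. Sv2b, a relative of Sv2a, was 6.55, 7.41 and 7.52 in the PNET and 3.4 to 4.83 in the other samples, and Napb, which helps take SNARE complexes apart, was 7.15, 7.24 and 7.99 in the PNET and 4.85 to 5.89 elsewhere. Sv2b differed by 3.13 ± 0.39 (SE, n = 3 and 3; limma adjusted p = 0.001967) and Napb by 2.47 ± 0.26 (adjusted p = 0.0008618), while Unc13b and Nsf were higher by 1.56 and 1.43. Dnm3, a dynamin, was lower by -2.94 ± 0.58 (adjusted p = 0.01512).

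Ribbon synapse genes were listed as well, since photoreceptors use them. Of 13 listed, 9 were measured, of which 5 are among the 38 genes and 4 are not. Of those 4, 3 were higher in PNET than in grafts and none was lower, beside 6% and 8.01% of named genes. Cplx4, a complexin of photoreceptor ribbon synapses, was 6.02, 8.56 and 8.64 in the PNET and 2.66 to 3.51 elsewhere. Its difference from the grafts was 5.04 ± 0.63 (SE, n = 3 and 3; limma adjusted p = 0.001978).

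Cacna1f, the calcium channel of photoreceptor terminals, was 6.99, 7.95 and 8.26 in the PNET and 4.23 to 4.56 elsewhere, a difference of 3.38 ± 0.31 from the grafts (SE, n = 3 and 3; limma adjusted p = 0.0004521). Unc119, which carries lipid-anchored proteins in photoreceptors, was 9.15 to 9.31 in the PNET, 6.88 to 7.53 in the grafts and 8.75 to 9.43 in the spheres, so it separated PNET from grafts but not from cultures. Cabp4, a partner of that channel, was 4.62 to 4.72 in the PNET and 4.31 to 5 elsewhere. The part of photoreceptor and pineal markers in the differences of the 38 genes was not tested.

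Adhesion genes that join the 2 sides of the synapse went the other way. Of 12 measured, 8 were lower in PNET than in grafts and 1 was higher, or 66.67% and 8.333%, beside 8.01% and 6% of named genes. Nlgn3, a neuroligin that oligodendrocyte precursors also carry, was 6.02, 5.57 and 5.18 in the PNET and 9.4 to 10.18 in the other samples. Nlgn1 was 4.33, 3.48 and 3.5 in the PNET and 7.29 to 8.24 elsewhere.

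No PNET came near another sample for either neuroligin. The differences from the grafts were -4.36 ± 0.25 for Nlgn3 (SE, n = 3 and 3; limma adjusted p = 6.319e-05) and -3.98 ± 0.3 for Nlgn1 (adjusted p = 0.0001633). Cbln1, a secreted synapse organiser, was higher in PNET, at 8.28 to 9.08 beside 5.95 to 7.44 in the grafts (1.87 ± 0.4; adjusted p = 0.02). The 8 measured oligodendrocyte precursor markers were also all lower in PNET than in grafts, with list means of 5.49 to 5.81 and 9.76 to 10.06, and their part in the adhesion differences was not tested.

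REST represses neuronal genes outside neurons. Rest itself was 7.06, 6.43 and 6.61 in the PNET, 7.16, 7.9 and 7.63 in the grafts, 7.51 and 7.73 in the AdCre spheres and 7.35 in the AdGFP sphere. It was lower in PNET than in AdCre spheres, by -0.92 ± 0.28 (SE, n = 3 and 2, limma adjusted p = 0.03149). In that comparison 32.09% of named genes were lower. On a list of Rest and its complex, 3 of 8 measured genes were lower, Rest itself among them, or 37.5%, with 1 higher. Rest was not called between PNET and grafts (limma adjusted p = 0.06326). Of the same 8 genes, Rest included, 1 was called between PNET and grafts, or 12.5% beside 11.12% of all transcript clusters and 14.01% of named genes. It was the corepressor Rcor1, which was higher in PNET by 1.26 ± 0.2 (SE, n = 3 and 3; limma adjusted p = 0.006234).

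**Figure D4:**
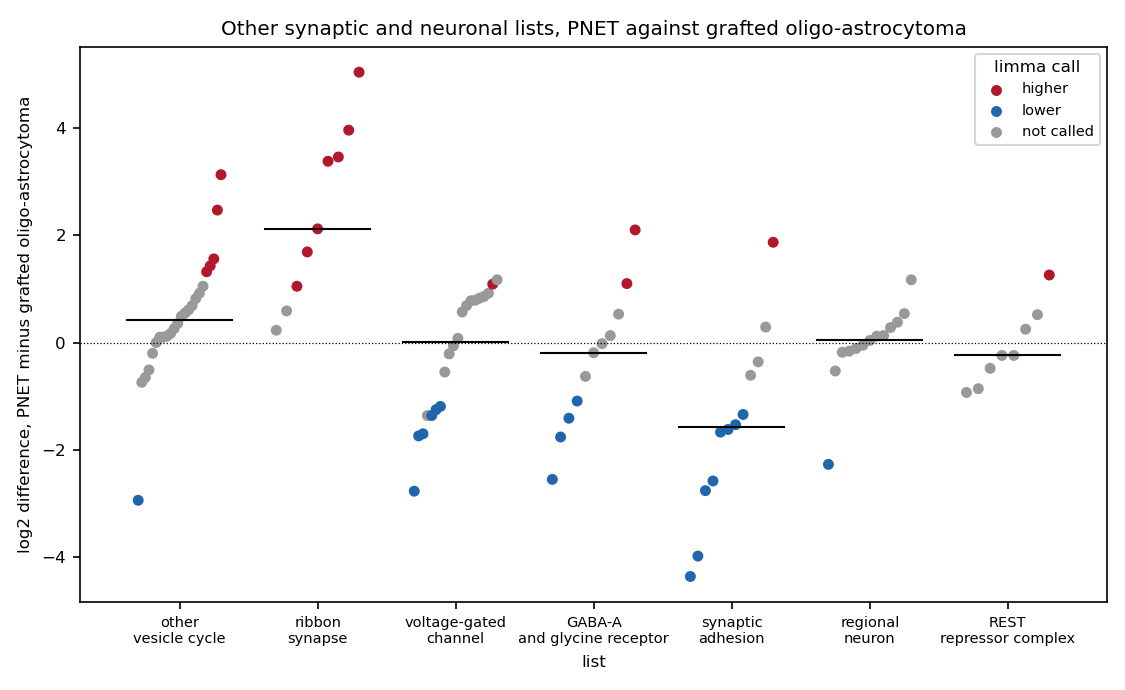
Log2 differences between PNET and grafted oligo-astrocytomas for genes of 7 other neuronal lists, 1 point per gene and 1 column per list, with called genes coloured and a line at each list's median. The synaptic adhesion list holds 8 genes called lower and 1 higher, and the ribbon synapse list 7 called higher and none lower, of which 4 are among the 38 genes.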

How the data were processed

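Biotin-labelled total RNA from Trizol lysates was hybridised to Affymetrix mouse exon arrays, 1 per sample; the series' text names 2 array versions. The authors deposited log2 expression, 1 value per transcript cluster and sample, made with Partek and RMA on build mm8, per the submitters' processing notes, which give no versions. RMA corrects background, normalizes between arrays and summarises probes, though upper quartiles of the deposited values differed between tumours and spheres. The values were used as deposited, with no filter or pseudocount. The number of arrays, 1 to 3 a group, limits the precision.

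A probe annotation named 1 gene for 14939 of 23238 transcript clusters, several for 989 and none for 7310. The members, gene lists, tests and alternatives were chosen with earlier results of these data known. All measured members are described, those called in no comparison by their range, and up to 4 called genes per direction of each other list. A linear model with 5 groups was fitted to all 10 samples in R 4.3.3 by limma 3.58.1, using lmFit and eBayes, with 6 contrasts and a moderated F test, two-sided, and Benjamini-Hochberg adjustment over all transcript clusters at 0.05. Groups of 1 sample were assumed to vary like the others. Alternatives were quantile normalization, centring, a filter on mean log2 values under 5, trended robust moderation, 1 oligo-astrocytoma group, a replicate block and leaving out each replicate. Promoters came from RefSeq (GRCm38.p6), whose coordinates were not mixed with those of the arrays.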

Additional observations from a re-analysis of the deposited data

How the results depend on the processing

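The member differences called in the full fit were recomputed under the alternatives, which gave 730 values. Of these, 614 kept their call and direction, 116 kept the direction but lost the call, and none changed sign. Leaving out a sample gave 98 of the 116. Calls gained are not in this count, and differences already past the threshold were unlikely to change sign. Leaving out a sample of neither compared group alters the estimated spread but not the difference itself. Leaving out 1 sample gave 9 to 16 members called between PNET and grafted oligo-astrocytomas (16 in the full fit), 3 to 9 between PNET and oligo-astrocytoma 44 (7), 14 to 21 between PNET and AdCre spheres (21), 7 to 15 between grafts and AdCre spheres (13), 0 to 1 between the oligo-astrocytoma groups (0), and 15 to 25 for the F test over the 5 groups (24), with 15 in the fit without AdCre sphere 1. Quantile normalization lowered the count between grafts and AdCre spheres to 8. A filter on dim transcript clusters, which kept 15401 of them and 33 of the 38 members, gave 1 call between the oligo-astrocytoma groups, Syn2. With both oligo-astrocytoma groups as 1, there were 18 calls against PNET, 13 higher and 5 lower. No member had a second transcript cluster, so that alternative was not run. The cause of these shifts was not tested; fits that left out a sample had fewer samples.

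PNET and AdCre spheres share the sample numbers 1 and 2, and the AdGFP sphere also has number 1. Correlations of deviations from the group mean between same-numbered PNET and AdCre spheres were -0.033 and -0.058. With 2 AdCre spheres, their deviations mirror each other, so these correlations cannot decide whether samples were paired. The 1 AdGFP sphere could not be checked in this way. The full fit treats all samples as unpaired. A replicate block left 15 calls between PNET and AdCre spheres, 6 higher and 9 lower, and 0 between AdCre and AdGFP spheres. It gave results only for comparisons among PNET and spheres, not for those with oligo-astrocytomas. The PNET whose number no sphere shares added nothing to the difference from AdCre spheres. The medians, -0.38 for named genes and -0.25 for members, equalled those of the fit without that PNET. Fitting the block also leaves less information on the spread, so the lost calls cannot be put down to pairing. Dim genes (Slc17a6, Calb1, Stmn2 and Grin2a in most samples) can hide differences, since values near the arrays' lower end compress.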

Other observations

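Ion channels and inhibitory receptors of neurons were listed as well. Of 20 voltage-gated channel genes, 6 were lower in PNET than in grafted oligo-astrocytomas and 1 was higher (limma, adjusted p under 0.05). These are 30% and 5%, beside 8.01% and 6% of named genes, and the median difference was 0.01. Kcnd2, a potassium channel of dendrites, was 3.99 to 4.48 in the PNET, 5.95 to 7.59 in the grafts and 9.3 to 9.77 in the spheres, and differed between PNET and grafts by -2.77 ± 0.4 (adjusted p = 0.003852). Cacna1a, the calcium channel of many nerve terminals, differed by -1.74 ± 0.33 (adjusted p = 0.01365), and Kcnc1, a channel of fast-firing cells, was the gene that was higher, by 1.09 ± 0.22 (adjusted p = 0.01578). Kcnc1 was 6.05 to 6.55 in the PNET, 4.94 to 5.47 in the grafts and 7.41 to 8.92 in the spheres. Of its 2 transcript clusters, the one with the higher mean over the 10 arrays was used. PNET 1 held more Cacna2d3 than any other sample, at 9.46 beside 4.73 and 4.74 in PNET 2 and 3, a gene chosen after its values were seen and not called in that comparison.

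Of 11 GABA-A and glycine receptor genes, 4 were lower in PNET than in grafts and 2 were higher. These are 36.36% and 18.18%, beside 8.01% and 6% of named genes. Gabra3 was 3.96 to 4.48 in the PNET and 6.22 to 7.51 in the grafts, a difference of -2.55 ± 0.34 (limma adjusted p = 0.002907). Glra1, a glycine receptor subunit, was 4.91 to 5.32 in the PNET and 2.92 to 3.56 in all other samples, and was higher by 2.1 ± 0.18 (adjusted p = 0.0003217). Gphn, which anchors these receptors, was higher by 1.1 ± 0.22 (adjusted p = 0.015). Its values were 8.31 to 8.42 in the PNET, 6.81 to 7.54 in the grafts, 8.33 in oligo-astrocytoma 44 and 8.84 to 8.96 in the spheres. Of 13 regional neuron markers 1 was called, or 7.692% beside 14.01% of named genes. It was Prox1, at 3.91 to 4.68 in the PNET and 6.35 to 6.61 in the grafts (-2.27 ± 0.24, limma adjusted p = 0.0009013).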
